A study of Rattus norvegicus with 2 samples.

Results

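The genes described here are 9 genes of the complement system and its regulators, C3, Cfb, Cfd, Cfi, Serping1, C1s, Cd46, Cd55 and Cd59, measured in rat urine. They were taken by name from the 16484 entries of the deposited table that carry a number-only rat gene ID, out of 113011 entries of all kinds. The 9 names were chosen with earlier results of these data known. RefSeq gave 8 of these genes under the same symbol, and Cd59 under the symbol Cd59b with Cd59 as an older name. Urine RNA was sequenced in 2 libraries, 1 labelled WT and 1 labelled UUO. Both came from Sprague Dawley rats, listed at postnatal day 56. UUO rats had the right ureter tied off (unilateral ureteral obstruction, a model that scars the kidney), and WT urine was taken to be that of the rats given sham surgery without ligation, since the labels describe no other group. Collection followed 2 weeks after surgery, through a catheter in the ureter in both groups. Only the later part of the collected urine was used, and it was centrifuged before storage and again after thawing. The sex of the rats and how many gave urine to each library are not given in the sources used here.

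Complement is a cascade of proteins in blood and tissue fluid that marks and lyses cells. The classical route starts with C1q and its proteases, and the alternative route runs on C3 itself with factor B and factor D, the 2 routes meeting at the cleavage of C3. Host cells hold the cascade back with soluble inhibitors and with proteins on their own membrane. The liver makes most circulating complement, while kidney tubule cells and macrophages are known to express several of these genes locally.

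With 1 library per group no difference has a replicate check, no test was possible, and each value describes these 2 libraries. Values are FPKM, fragments per kilobase of transcript after scaling for library size, which allows levels of different genes to be set side by side. Detection was set at FPKM of at least 1. Differences are UUO minus WT on the log2(FPKM + 1) scale, which understates the change of low genes, and a gene was called higher or lower at a difference of 1 (2-fold) or more if its FPKM was at least 1 in either library. The 2 columns of the table carry the abbreviated names UrRf and Urc. UrRf was read as UUO and Urc as WT, and with the reverse reading every direction would turn around. From the steps in the FPKM values, the normalising total was estimated at 2116000 fragments for WT and 2440000 for UUO urine. The fit tried only totals within a limited range, and a multiple of a total would also give whole fragments. The paper describes read numbers per sample of a higher order, so these totals are uncertain. Limits in fragments given below rest on them. A single fragment on a transcript of 1000 bp then equalled an FPKM of 0.542 in the WT and 0.497 in the UUO library. An entry listed at 0 can be a failed estimate. Of 12 genes that nearly every cell uses, a list written after the members' values were seen, 2 were listed at 0 in both libraries, and the cyclophilin gene Ppia was listed at 0 in the UUO library against an FPKM of 27.7 in the WT library.

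The scaling of the 2 libraries moved all differences together. Over the 9853 number-only genes at FPKM of at least 1 in either library, the median log2 difference was -0.51 in the deposited values, 0.15 with sums made equal and 0.40 with the median ratio set to 1. It was 1.98 when the 75th percentiles of the values above 0 in each library were matched, and -3.01 when the 75th percentile was taken over entries above 0 in either library, where many WT values are 0. Each member called by the 2-fold limit is therefore also given relative to the median gene. A rescaling moves a gene and this median together, so such values change mainly through the pseudocount and the filter. Their agreement over rescalings is no check of a direction.

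Membrane regulators showed both the greatest excess in the WT library and the highest member level in the UUO library. Cd55 and Cd59 had their WT and UUO values in opposite order, and Cd46 was listed at 0 in both. Cd55, or decay-accelerating factor, takes apart the convertases that cleave C3 and C5. It had an FPKM of 249 in the WT and 1.90 in the UUO library, so that the WT level was 131 times the UUO level. The log2 difference was -6.43, and -5.92 relative to the median gene. Only 17 of the 9853 genes, 0.173%, were lower in the UUO library by more. Cd55 ranked 181 among all number-only genes in the WT library and 8211 in the UUO library. In WT urine it held 93.0% of the summed FPKM of the 9 members, which was 268 in the WT and 56.4 in the UUO library. Without Cd55 the sums were 18.6 and 54.5, in the other order. Under every scaling, pseudocount and locus sum tried, Cd55 was lower in the UUO library, with log2 differences from -7.71 to -4.26.

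**Figure D1:**
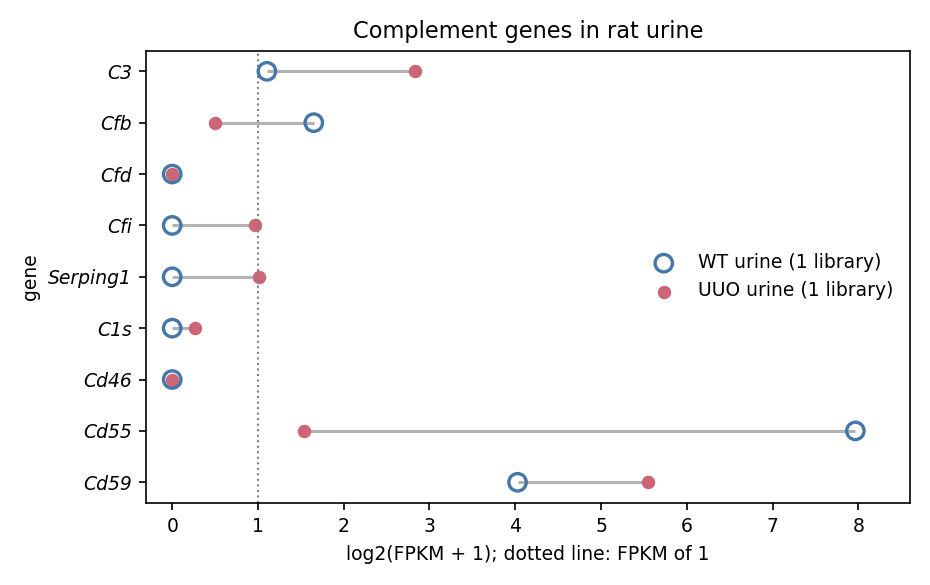
Levels of the 9 complement genes on the log2(FPKM + 1) axis, open circles for the WT library and filled circles for the UUO library, with a line joining each pair and a dotted line at FPKM of 1. Cd55 stands at 249 FPKM in the WT and 1.90 in the UUO library, Cd59 at 15.3 and 45.8, and Cd46 and Cfd lie at 0 in both.

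The entry of Cd55 (gene ID 64036) lies on chromosome 13 from 52179073 to 52206115 in the rn5 build. The same locus lists 6 noncoding entries, none above an FPKM of 0.854 in WT or 0.757 in the UUO library, so that summing the locus gave 251 and 4.23. Noncoding genes and their transcripts are separate entries, so counts of entries and locus sums can include the same signal more than once. No share over all noncoding entries is given here, so such counts are not read as results about the members. Of all 16484 number-only genes, 8024 were above 0 in the WT and 12008 in the UUO library. Proximal tubule markers stood lower in the UUO library, with 4 of 5 past the 2-fold limit and a summed FPKM of 106 in the WT and 38.3 in the UUO library, and the endocytic receptor gene Lrp2 at 38.7 and 6.0. By the same limit 36.5% of the 9853 number-only genes were lower. Of the 12 genes that nearly every cell uses, 5 were lower and 0 higher, with sums of 3052 in the WT and 1219 in the UUO library. A list of 14 male accessory gland genes, written after the members' values were seen, summed to an FPKM of 1228 in the WT and 3.63 in the UUO library, with 3 genes lower, 1 higher and 7 listed at 0 in both. The urine was drawn from the ureter, which lies upstream of where these glands open. Among the 14 accessory gland genes the most abundant in the WT library was Andpro, at 792 in the WT and listed at 0 in the UUO library. The part of these lists in the Cd55 value was not tested. In centrifuged urine, fewer cells of a type, less RNA per cell and a change in RNA outside cells cannot be told apart.

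Cd59, the membrane protein that blocks assembly of the lytic pore, was the most abundant member in the UUO library. It had an FPKM of 15.3 in the WT and 45.8 in the UUO library, a 2.99-fold higher level and a log2 difference of 1.52 (2.03 relative to the median gene), which turned to -1.49 when the 75th percentile was taken over entries above 0 in either library. Relative to the median gene Cd59 ranged from 1.51 to 2.17 over the 4 rescalings. Cd59 (gene ID 25407, chromosome 3, 100650159 to 100669086, rn5) ranked 4005 in the WT and 676 in the UUO library, and it held 81.2% of the members' summed FPKM in the UUO library. Its locus lists 6 noncoding entries, 4 of them higher in the UUO library and the highest at 2.49 in the WT and 3.97 in the UUO library. These 4 are 2 gene entries and 2 transcript entries with nearly equal values in pairs, the transcript entry beside the highest at 2.49 and 3.95. Red cells carry Cd59 protein, and 4 red-cell marker genes summed to an FPKM of 2454 in the WT and 77660 in the UUO library, all 4 higher. Platelet markers summed to 0 and 185, with 2 of 3 higher, and podocyte markers to 15.2 and 47.8, with 3 of 4 higher. By the 2-fold limit 25.7% of the 9853 number-only genes were higher. The part of these lists in the Cd59 value was not tested.

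Cd46, or membrane cofactor protein, helps factor I to cleave deposited C3b. It was listed at 0 in both libraries (gene ID 29333, chromosome 13, 118334938 to 118366003, rn5). Of its 3 overlapping noncoding entries, 2 were above 0 in the WT and 3 in the UUO library, none above an FPKM of 0.216. The share over all noncoding entries is not given, so no direction is read from this count.

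Of the genes of the alternative route and the centre of the cascade, C3 was higher and Cfb lower in the UUO library as deposited, and Cfd was listed at 0 in both. C3, the protein at which all routes meet, had an FPKM of 1.15 in the WT and 6.10 in the UUO library. This is a 5.32-fold difference, at a log2 difference of 1.73 (2.23 relative to the median gene), which turned to -0.39 when the 75th percentile was taken over entries above 0 in either library. Relative to the median gene C3 ranged from 2.08 to 2.62 over the 4 rescalings. The WT level lies between the FPKM that 3 fragments give on a transcript of 1000 bp, 1.63, and of 2000 bp, 0.757, and the number of fragments behind it depends on the transcript length, which was not used here. C3 (gene ID 24232, chromosome 9, 8728464 to 8754412, rn5) is the only entry at its locus.

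Cfb encodes factor B, which joins C3b to form the alternative convertase. It had an FPKM of 2.14 in the WT and 0.410 in the UUO library, a log2 difference of -1.15 (-0.64 relative to the median gene), which turned to 0.20 when the 75th percentiles of the values above 0 in each library were matched. The sign of the log2 difference of Cfb thus depended on the scaling. Relative to the median gene it ranged from -1.78 to 1.42 over the 4 rescalings. The 1.42 came where the 75th percentile was taken over entries above 0 in either library, with UUO values divided by 9.53. There the pseudocount limits how far so low a value can fall, so no direction is read from the 1.42. The Cfb entry (gene ID 294257, chromosome 20, 6610126 to 6621872, rn5) shares its locus with the gene Nelfe, at 34.3 in the WT and 19.9 in the UUO library, and with 5 noncoding entries. Of these 5, 0 were above 0 in the WT and 4 in the UUO library, the highest at 1.34. This count too has no share over all noncoding entries beside it. With the noncoding entries added to Cfb and Nelfe left out, the log2 difference of Cfb was 0.20.

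Cfd encodes factor D, the protease that cleaves factor B, and is an abundant product of fat cells. Its FPKM was listed at 0 in both libraries. The locus (gene ID 54249, chromosome 7, 12711136 to 12963954, rn5) is a merged region of 82 entries with 16 number-only genes, and which of them overlap Cfd was not examined. The 4 fat cell markers summed to an FPKM of 99.7 in the WT and 148 in the UUO library, nearly all of it Fabp4, a lipid carrier that endothelial cells and macrophages also express, at 99.7 and 147. Adipoq was listed at 0 FPKM for WT and at 0.0417 in the UUO library, Lep at 0 and 0.264, and Plin1 at 0 in both.

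The soluble inhibitors Cfi and Serping1 and the classical protease gene C1s were each listed at 0 in the WT and above 0 in the UUO library. Serping1, the C1 inhibitor that blocks C1r and C1s, had an FPKM of 1.01 in the UUO library, and Cfi, the protease factor I that destroys C3b, of 0.956. C1s stood at 0.202. Serping1 thus lay just inside and Cfi just outside the limits for a higher call, with log2 differences of 1.01 and 0.97. Relative to the median gene Serping1 stood at 1.52 as deposited and from 0.91 to 3.15 over the 4 rescalings. A WT count of up to 3 fragments could be missed, which is an FPKM of 1.63 on a transcript of 1000 bp and 0.757 on one of 2000 bp, counting error only. The UUO levels of Cfi and Serping1 lie between these limits, so at this depth a difference could not be told from none without the transcript lengths, which were not used here. Serping1 (gene ID 295703) lies on chromosome 3 from 78681812 to 78691629, Cfi (79126) on chromosome 2 from 74628921 to 74659423, and C1s (192262) in a merged region of 33 entries on chromosome 4 from 223746158 to 224174113, all in rn5. Of the noncoding entries overlapping Serping1, 0 of 5 were above 0 in the WT and 3 of 5 in the UUO library. The share over all noncoding entries is not given. Number-only genes were also above 0 more often in the UUO library, 12008 of 16484 against 8024 in the WT library. No presence of Serping1 is read from this count.

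Counted together, 4 of the 9 members were detected in the WT library and 4 in the UUO library, 3 of them in both. Among all number-only genes 47.3% were detected in the WT and 56.3% in the UUO library. Of the members, 3 of 9 were listed at 0 in the WT and above 0 in the UUO library, against 25.3% of all number-only genes, and 2 of 9 were listed at 0 in both, against 26.0%. By the 2-fold limit 3 members were higher (C3, Cd59 and Serping1) and 2 lower (Cd55 and Cfb), while 25.7% of the 9853 genes were higher and 36.5% lower. Serping1 and Cfb could be counted only because they passed FPKM of 1 in 1 library. The median log2 difference was 1.01 for the 5 members that reached FPKM 1 in either library, beside -0.51 for all such genes, and 0.26 for all 9 members, beside 0.00 for all number-only genes. Both medians of the members are thus single genes, Serping1 and C1s, that were listed at 0 in the WT library. The shares at 0 were near those of all genes, and members were found on both sides.

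**Figure D2:**
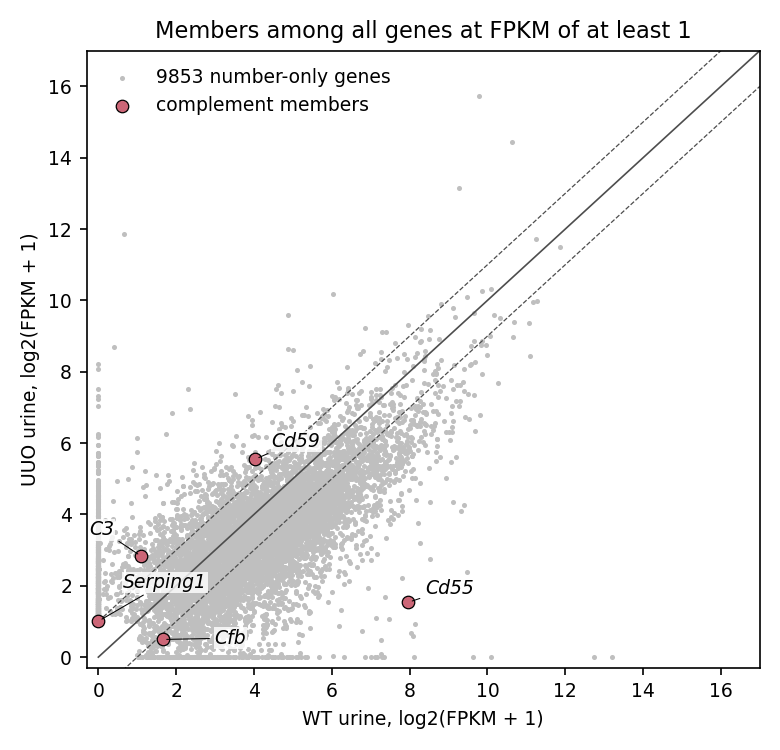
Each grey point is 1 of 9853 number-only genes that reached FPKM 1 in either library, with log2(FPKM + 1) in the WT library on the x axis and in the UUO library on the y axis; the solid line marks equal values, the dashed lines a log2 difference of 1, and red points are the 5 members at FPKM of at least 1. Cd55 lies far below the cloud at 249 against 1.90, while C3, Cd59, Serping1 and Cfb lie within 2 log2 units of the line of equal values as deposited.

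Promoters are shown for the 2 members that stood furthest apart in each direction among those with a RefSeq promoter entry, C3 and Cd55. Each runs from 250 bases before to 50 after the annotated start in the GRCr8 build, on the minus strand, at chr9:2201290-2201589 for C3 and chr13:44438052-44438351 for Cd55. Capitals mark a match to the motif TTNNGNAAT, the C/EBP pattern.
C3: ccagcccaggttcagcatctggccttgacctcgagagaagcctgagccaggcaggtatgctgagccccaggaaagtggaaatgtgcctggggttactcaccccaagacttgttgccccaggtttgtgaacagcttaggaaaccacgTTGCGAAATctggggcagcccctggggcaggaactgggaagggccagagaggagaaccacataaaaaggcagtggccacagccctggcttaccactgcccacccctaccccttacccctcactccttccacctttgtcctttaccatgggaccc
Cd55: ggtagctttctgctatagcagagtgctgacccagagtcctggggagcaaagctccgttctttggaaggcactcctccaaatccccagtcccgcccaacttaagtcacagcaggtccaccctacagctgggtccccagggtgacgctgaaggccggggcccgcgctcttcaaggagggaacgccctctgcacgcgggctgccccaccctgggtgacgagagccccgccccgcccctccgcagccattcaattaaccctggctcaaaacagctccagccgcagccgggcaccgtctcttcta

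The C3 window holds the match TTGCGAAAT on the plus strand of the printed sequence, starting 104 bases before the start site. The Cd55 window holds none of the 4 motifs searched on both strands. RefSeq gave a promoter for 5 of the 9 members (C3, Cfi, Cfd, Cd46 and Cd55). TTNNGNAAT was found in 1 of these 5, against 12.3% of 33469 promoters, and AAANNGAAA, part of an interferon response element, in 1, Cfi, against 11.8%. GGANNTTCC, part of an NF-kB site, and TTCNNNGAA, the GAS element, which reads the same on both strands, were found in 0 of 5, against 4.09% and 8.87%. Base composition was 58.3% G and C in the C3 window and 63.7% in that of Cd55, with a median of 51.7% over all promoters. A match describes these letters only.

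Other genes of the cascade were taken from a list of 45, of which 41 were found in the table. Of these 41, 8 were detected in the WT and 14 in the UUO library, 16 were listed at 0 in the WT and above 0 in the UUO library, and 17 were at 0 in both. Among all number-only genes 47.3% were detected in the WT and 56.3% in the UUO library. Of those genes 25.3% were listed at 0 in the WT only, and 26.0% at 0 in both. At FPKM of at least 1 in either library there were 16 genes, 9 higher and 2 lower by the 2-fold limit, but 1 higher and 7 lower when the 75th percentile was taken over entries above 0 in either library. As deposited, 25.7% of the 9853 number-only genes were higher and 36.5% lower. Of the 9 higher genes, 8 were listed at 0 in the WT library, so that any FPKM over 1 in the UUO library had to count as higher. The median log2 difference of these 16 was 1.13, and that of all 41 was 0.00. No direction is read from these counts.

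Clu, whose product clusterin binds the forming lytic pore in fluid, was the most abundant complement-linked gene of the list in the UUO library. It had an FPKM of 42.7 in the WT and 287 in the UUO library, a log2 difference of 2.72, which turned to -0.49 when the 75th percentile was taken over entries above 0 in either library. It ranked 1691 and 70 among number-only genes. The 3 chains of C1q, the recognition molecule of the classical route, are coded side by side on chromosome 5 but did not stand together. C1qb was 22.9 in the WT and 15.1 in the UUO library and C1qc 19.4 and 13.1, while C1qa was listed at 0 in the WT and at 22.3 in the UUO library. A functional C1q molecule needs all 3 chains. The other entries at the C1qa locus brought its sum to 1.04 in the WT and 23.2 in the UUO library.

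Cr1l, the rodent membrane regulator also called Crry, was listed at 0 FPKM for WT and at 5.80 in the UUO library. Among the receptors for complement fragments, C5ar2 was listed at 0 in the WT and at 4.93 in the UUO library, and C5ar1 at 0 and 1.04. The integrin chain Itgam, part of complement receptor 3, was at 0 and 1.63, and its partner Itgb2 at 5.99 and 8.14. The UUO levels of C5ar1 and Itgam lie near or below 1.63, the FPKM of 3 fragments on a WT transcript of 1000 bp. Without the transcript lengths a difference could not be told from none for them. Properdin (Cfp), which steadies the alternative convertase, was listed at 0 and 2.51. Leukocytes express these receptors, integrins and properdin, and the summed level of neutrophil and macrophage markers also stood higher in the UUO library. Of 11 such markers 3 were above 0 in the WT and 10 in the UUO library, and their summed FPKM was 14.6 and 165, of which S100a8 gave 0 and 27.0 and S100a9 0 and 71.7. By the 2-fold limit 7 were higher and 1 lower, Ncf1 at 5.03 and 1.39, while Cd14 was at 2.05 and 1.31 and Mpo was listed at 0 in both. Of the 9853 number-only genes 25.7% were higher and 36.5% lower. Of all 16484 such genes, 8024 were above 0 in the WT and 12008 in the UUO library. The part of these markers in the receptor, integrin and properdin values was not tested.

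C2, the classical route's counterpart of factor B, was listed at 0 in the WT and at 1.35 in the UUO library, and C8g at 0 and 3.16. Summed over all entries of the locus the order was opposite for both, 7.09 and 1.81 for C2 and 202 and 44.1 for C8g, where 3 number-only genes share the region. Lower in the UUO library as deposited were Csmd1, a large membrane protein that can inhibit complement, at 3.71 and 0.192, and Cpn1, which codes for a subunit of the carboxypeptidase that inactivates C3a and C5a, at 1.08 and listed at 0. The Cpn1 order also turned in the sum over its locus, 1.16 in the WT and 1.38 in the UUO library, and its WT level is below the FPKM of 3 fragments on 1000 bp. The Csmd1 locus sum was 3.71 in the WT and 2.69 in the UUO library, a difference within the 2-fold limit. C1qbp, a mitochondrial protein first found as a C1q binder, was at 58.9 in the WT and 29.0 in the UUO library, a ratio of 2.03, and was not called lower because the added pseudocount of 1 brings it just under the limit. C6, C8a, C8b and C9 of the lytic pore and Masp2, Mbl1 and Mbl2 of the lectin route were listed at 0 in both libraries. The liver markers Alb, Apoa1, Fgb, Fgg and Serpina1 were also at 0 in both, 5 of 8 in that list, whose summed FPKM was 9.90 in the WT and 2.47 in the UUO library. C4a and C4b are near-identical copies in a merged region and their values, 0 in both and 0 and 0.0997, are uncertain.

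**Figure D3:**
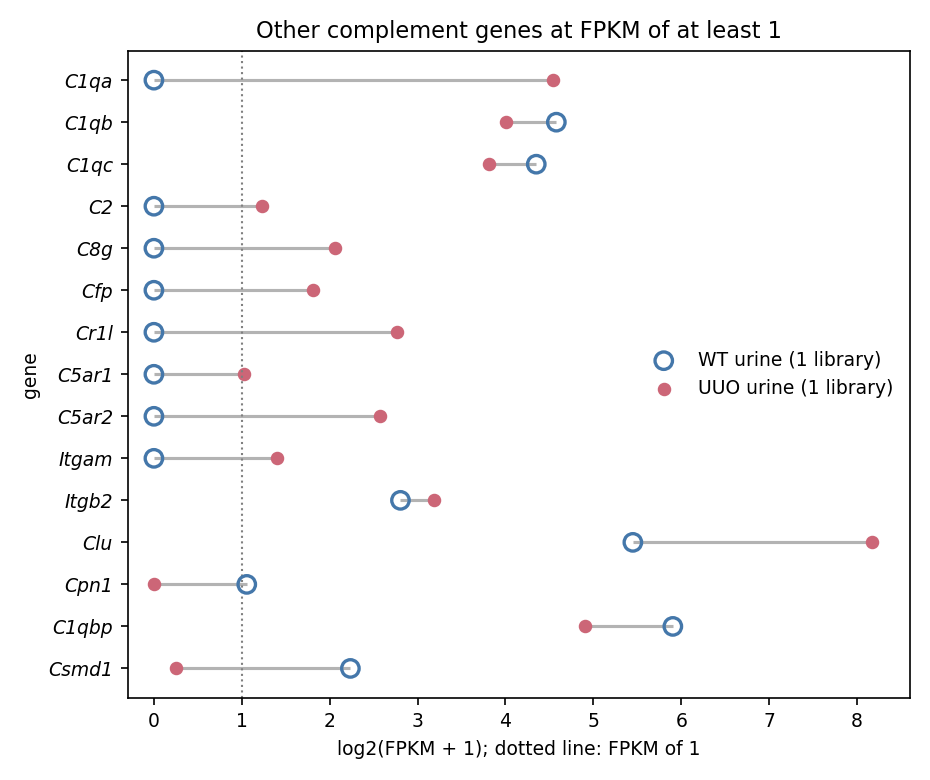
Levels of 15 of the 16 other complement genes that reached FPKM 1 in either library, on the log2(FPKM + 1) axis, open circles for WT and filled circles for UUO urine. Clu stands at 42.7 FPKM in the WT and 287 in UUO as deposited, and C1qa is listed at 0 in WT while C1qb and C1qc stand at 22.9 and 19.4 there.

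Urothelial markers, which label the lining of the urinary tract, were present in both libraries, with 5 of 5 found genes detected in each and a summed FPKM of 806 in the WT and 1060 in the UUO library. Of the lymphocyte markers, 0 of 5 were above 0 in the WT and 2 of 5 in the UUO library, Cd79b at 3.19 and Cd8a at 0.048. Cd79b was thus called higher by the 2-fold limit. Markers of the loop, distal tubule and collecting duct summed to 122 in the WT and 129.9 in the UUO library, with 2 of 6 higher. Among the 9853 number-only genes 25.7% were higher. Of all 16484 such genes, 8024 were above 0 in the WT and 12008 in the UUO library.

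**Figure D4:**
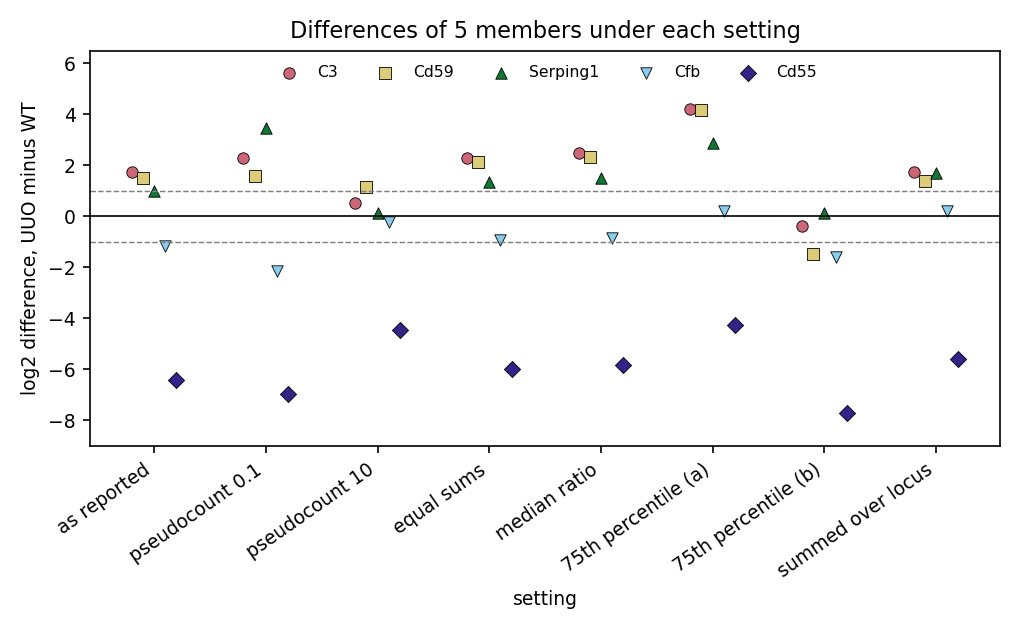
Log2 differences (UUO minus WT) of 5 members as reported and under 7 other settings, where 75th percentile (a) matches the values above 0 in each library, (b) uses entries above 0 in either library, and summed over locus leaves out other genes; dashed lines mark a difference of 1 in size. Cd55 stays below -4 throughout, while C3 and Cd59 fall below 0 only under (b), Cfb passes 0 under (a) and the locus sum, and Serping1 is near 0 with a pseudocount of 10 and under (b).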

How the data were processed

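Urine RNA of 1 WT and 1 UUO library was used. Per the labels and the study's methods, the authors aligned read pairs with TopHat2 2.0.9 and Bowtie2 2.0.6 to rn5, assembled transcripts with Cufflinks 2.1.1 and Scripture, and deposited 1 FPKM value per entry and library in a Cuffdiff 2.1.1 table. The total behind the FPKM scaling is not given in the sources used here. Their fold change, p-value and q-value columns were not used.

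Symbols came from a RefSeq table of GRCr8, which named 16329 of 16484 number-only IDs. The members and lists were chosen with earlier results of these data known. Named are all 9 members and the listed complement genes at FPKM of at least 1 except 1 that is not reported here, others after their values were seen. Differences of log2(FPKM + 1), counts and medians were computed with Python 3.11.15, pandas 2.3.3 and numpy 2.4.6, and the counting was tested on simulated data. Depth was estimated by fitting whole fragments, over a limited range of totals, to assembled entries of 400 to 1200 bp alone at their locus. Within 0.1, 93.5% of 186 WT and 99.4% of 3530 UUO values came out whole. Alternatives were other pseudocounts, filters, fold limits, scalings and locus sums.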

Additional observations from a re-analysis of the deposited data

How the results depend on the processing

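No paired analysis was possible because only 1 library was made per group. Over 17 results and 144 combinations with an alternative, 81 kept their sign and side of a log2 difference of 1, or a count within 1.5 times. A pseudocount of 10 gave 1 member higher and 1 lower (median 0.14) and 2 other complement genes higher and 0 lower (median 0.18). Rescaling to equal sums or by the median ratio left 1 member lower. Taking the 75th percentile over entries above 0 in either library gave 0 members higher (median -1.54), C3 at -0.39, Cd59 at -1.49, and 1 other gene higher and 7 lower (median -1.91). Matching it over values above 0 in each library gave 5 members higher, 1 lower, Cfb at 0.20 and 17 other genes higher. Locus sums gave 5 members higher, 1 lower, 8 detected in the UUO library, and 4 other genes lower (median 0.82). Without other genes at the locus they gave 6 higher, 1 lower, Cfb at 0.20, 8 detected in the UUO library and 4 other genes lower. These last locus sums and the matching in each library were chosen after seeing the data. A 4-fold limit left 0 members higher, 1 lower, and 5 other genes higher and 0 lower. FPKM of at least 5 left 1 member lower, 2 members detected in each library, and 3 other genes higher and 0 lower (median 0.39). Without a filter the medians were 0.26 and 0.00, and at FPKM above 0, 7 members were seen in the UUO library. Locus sums can count a noncoding gene and its transcript both. Higher limits count fewer genes. The cause of the other shifts was not tested. Depth limits every value listed at 0.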
